A study of Mus musculus with 6 samples.

Results

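The genes described here are 10 transcripts that rise when cells receive a canonical Wnt signal: Axin2, Nkd1, Notum, Rnf43, Znrf3, Lgr5, Lef1, Tcf7, Sp5 and Sp8. They were taken by symbol from the 31053 genes of the deposited count tables, and all 10 were found in each of the 6 libraries. The study compared mouse embryonic stem cells (ESC) of a parental line with cells carrying a conditional knockout (cKO) of Oct1, a POU-domain factor whose gene is Pou2f1. Both were sampled as ESC and at days 3 and 6 of a differentiation towards mesoderm, with 1 library for each genotype and stage. The cells spent 2 days in serum-free N2B27 medium with Bmp4, a ligand of the BMP pathway. They were then moved for 4 days to a DMEM medium with Rspo3, an R-spondin, and LDN-193189, an inhibitor of BMP type I receptors. Day 3 therefore lay 1 day and day 6 lay 4 days after the change to Rspo3, while the ESC libraries had had neither medium. Parental and cKO cells were given the same media, so no library shows either genotype at day 3 or 6 without Rspo3. How many clones each line stands for, and when the Oct1 allele was deleted, are not given in the sources used here.

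In canonical Wnt signalling a Wnt ligand binds a Frizzled receptor and an Lrp5 or Lrp6 co-receptor, the complex that destroys beta-catenin is held back, and beta-catenin enters the nucleus to act with TCF and LEF factors. The cell surface ubiquitin ligases Rnf43 and Znrf3 take Frizzled receptors off the membrane, and R-spondins, bound to an Lgr receptor, remove those ligases and so raise the response to Wnt. Many of the genes switched on are feedback inhibitors of the same pathway. In the mouse embryo the signal maintains the primitive streak and the tailbud, from which somites and spinal cord grow, and it also acts in the surface ectoderm.

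The analysis kept barcodes with at least 1000 detected genes and at most 10% mitochondrial UMIs (unique molecular identifiers, each standing for 1 captured RNA molecule), 7096 of 11046 in all. Kept cells numbered 1396 parental and 530 cKO in ESC, 948 and 1026 at day 3, and 1546 and 1650 at day 6, and the libraries summed to between 38935937 and 84128627 UMIs. Any pair of libraries shared at most 10 barcodes, and at most 2 among kept cells. Levels are UMIs per 1000000 UMIs of a library's kept cells (CPM). Each difference is a log2 ratio with an exact 95% interval that covers counting error only, and with 1 library per group no difference has a replicate check or a p-value. The label ESC fitted the naive pluripotency gene Zfp42, at 421 CPM in parental and 455 in cKO ESC. Pou2f1, the targeted gene, was lower in the libraries labelled cKO at every stage (log2 ratios -0.49 in ESC, -1.17 at day 3 and -0.95 at day 6) and was not lost, and a 5′ read need not lie in the deleted part. Parental cells varied in how their UMIs divided among chromosomes, and values of members by that division are given with the results below.

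The promoters of the members were read first, since TCF and LEF factors bind short motifs that hold CTTTGA or CTTTGT. RefSeq promoters (build GRCm38.p6, 250 bases before to 50 after a start site) matched 7 of the 10 members by symbol, with 14 promoters. Lgr5, Notum and Znrf3 had no entry. The 6-letter runs CTTTGA and CTTTGT were searched on both strands, and no 2 matches in the promoters shown share a letter. At least 1 match stood in 3 of the 14 promoters (21.4%), against 31.2% of all 32851 promoters in the table, 16% for CTTTGA and 18.7% for CTTTGT. The Sp5 promoter held 5 matches, a number reached by 12 promoters (0.0365%) of the whole table. Its CTTTGA matches begin at -204 and -104 and its CTTTGT matches at -221, -212 and 42, counted from the start site. The 250 bases before the start are shown for the 3 promoters with a match, all on the plus strand, with the matches in capitals (ACAAAG and TCAAAG are the 2 motifs read on the opposite strand).
Sp5, chr2:70474673-70474922: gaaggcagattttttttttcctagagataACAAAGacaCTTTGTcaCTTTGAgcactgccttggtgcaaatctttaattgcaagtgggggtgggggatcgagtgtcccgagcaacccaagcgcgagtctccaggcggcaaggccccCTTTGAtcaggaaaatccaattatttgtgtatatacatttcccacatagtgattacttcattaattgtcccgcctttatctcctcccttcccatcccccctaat
Lef1, chr3:131156044-131156293: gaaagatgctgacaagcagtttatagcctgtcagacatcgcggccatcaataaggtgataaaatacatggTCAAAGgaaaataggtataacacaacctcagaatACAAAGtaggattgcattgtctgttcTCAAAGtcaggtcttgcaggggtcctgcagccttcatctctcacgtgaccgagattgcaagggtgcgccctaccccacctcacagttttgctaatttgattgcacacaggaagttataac
Sp8, chr12:118846983-118847232: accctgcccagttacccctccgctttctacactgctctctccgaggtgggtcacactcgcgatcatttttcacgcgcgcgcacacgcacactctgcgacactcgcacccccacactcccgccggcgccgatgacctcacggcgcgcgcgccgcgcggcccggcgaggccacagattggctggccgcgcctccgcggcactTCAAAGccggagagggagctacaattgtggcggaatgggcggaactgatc
The Lef1 promoter shown starts at 131156044, inside the gene, and the Lef1 promoters starting at 131110047, 131110073 and 131112541 had 0 matches. The Sp8 promoter shown also lies inside the gene, and those starting at 118846079 and 118847309 had 0 matches. A match describes the letters only. No binding was measured in these libraries.

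The feedback inhibitors that act inside the cell were Axin2 and Nkd1. Axin2 (chr11:108920349-108950783, GENCODE vM21 on GRCm38, as for the other genes) encodes a scaffold of the destruction complex and is the most used reporter of Wnt response. Its level in parental cells was 32.9 CPM in ESC, 17.8 at day 3 and 9.97 at day 6. In cKO cells it was 27.2, 15.05 and 19.7 CPM, so it was lowest at day 6 in the parental line and lowest at day 3 in cKO. Nkd1 (chr8:88521354-88594884), which binds Dishevelled and dampens the signal, stood at 1.18, 10.3 and 15.7 CPM in parental cells from ESC to day 6. In cKO cells it stood at 1.10, 4.65 and 17.4 CPM. Both lines reached a like level by day 6, where the ratio was 0.15 (0.03 to 0.27), and the cKO line was lower at day 3.

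Notum, Rnf43 and Znrf3 act at or outside the cell surface. Notum (chr11:120653788-120661175) encodes a secreted enzyme that removes the lipid from Wnt proteins. Its parental levels were 13.4 CPM in ESC, 1.11 at day 3 and 1.78 at day 6, and its cKO levels were 10.3, 0.820 and 17.2 CPM. Day 6 cKO was thus the only library grown with Rspo3 in which Notum passed 5 CPM. Rnf43 (chr11:87662722-87735539) was under 5 CPM in all 6 libraries, with 1.85, 0.476 and 0.693 CPM in parental cells and 2.88, 0.416 and 3.60 CPM in cKO. Znrf3 (chr11:5276324-5444847) lay between 7.32 and 9.22 CPM in 5 libraries and at 14.9 CPM in day 6 cKO. All 3 genes had their highest level of days 3 and 6 in the cKO library of day 6, which also held for Axin2, Nkd1 and Sp5.

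Lgr5 (chr10:115450311-115587780), a receptor of R-spondins, was close to the limit of detection. It gave 2 to 47 UMIs a library and a level of 0.0514 to 0.604 CPM, highest in the 2 day 3 libraries. Its ratios between genotypes had intervals that included 0 at all 3 stages. The Rspo3 of the medium would meet the related receptor Lgr4, at 15.2 and 17.3 CPM in parental and cKO day 3 cells and at 15.5 and 10.9 CPM at day 6.

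Lef1 and Tcf7 encode the DNA-binding partners of beta-catenin that are themselves Wnt targets. Lef1 (chr3:131110471-131224356) was at 13.8 CPM in parental ESC, 65.7 at day 3 and 14.4 at day 6, and at 11.6, 59.5 and 12.55 CPM in cKO. Tcf7 (chr11:52252371-52283014) was at 11.9, 24.7 and 16.1 CPM in parental cells and at 10.1, 23.7 and 13.7 CPM in cKO. Both genes were highest at day 3 in both lines, and the genotypes differed by at most 0.25 on the log2 scale at each stage.

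Sp5 and Sp8 encode zinc finger transcription factors of the Sp family that respond to Wnt in the tailbud. Sp5 (chr2:70474923-70477729) was at 58.7 CPM in parental ESC, 43.3 at day 3 and 12.5 at day 6. In cKO cells it was at 44.5, 34.98 and 54.2 CPM, so the 2 lines differed most at the last stage, where the intervals (11.7 to 13.3 and 52.5 to 56.0 CPM) were far apart. Sp8 (chr12:118846329-118852576) was at 0.822, 10.1 and 8.01 CPM in parental cells. In cKO cells it was at 0.899, 7.02 and 0.805 CPM, which put day 6 at the level of ESC.

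**Figure D1:**
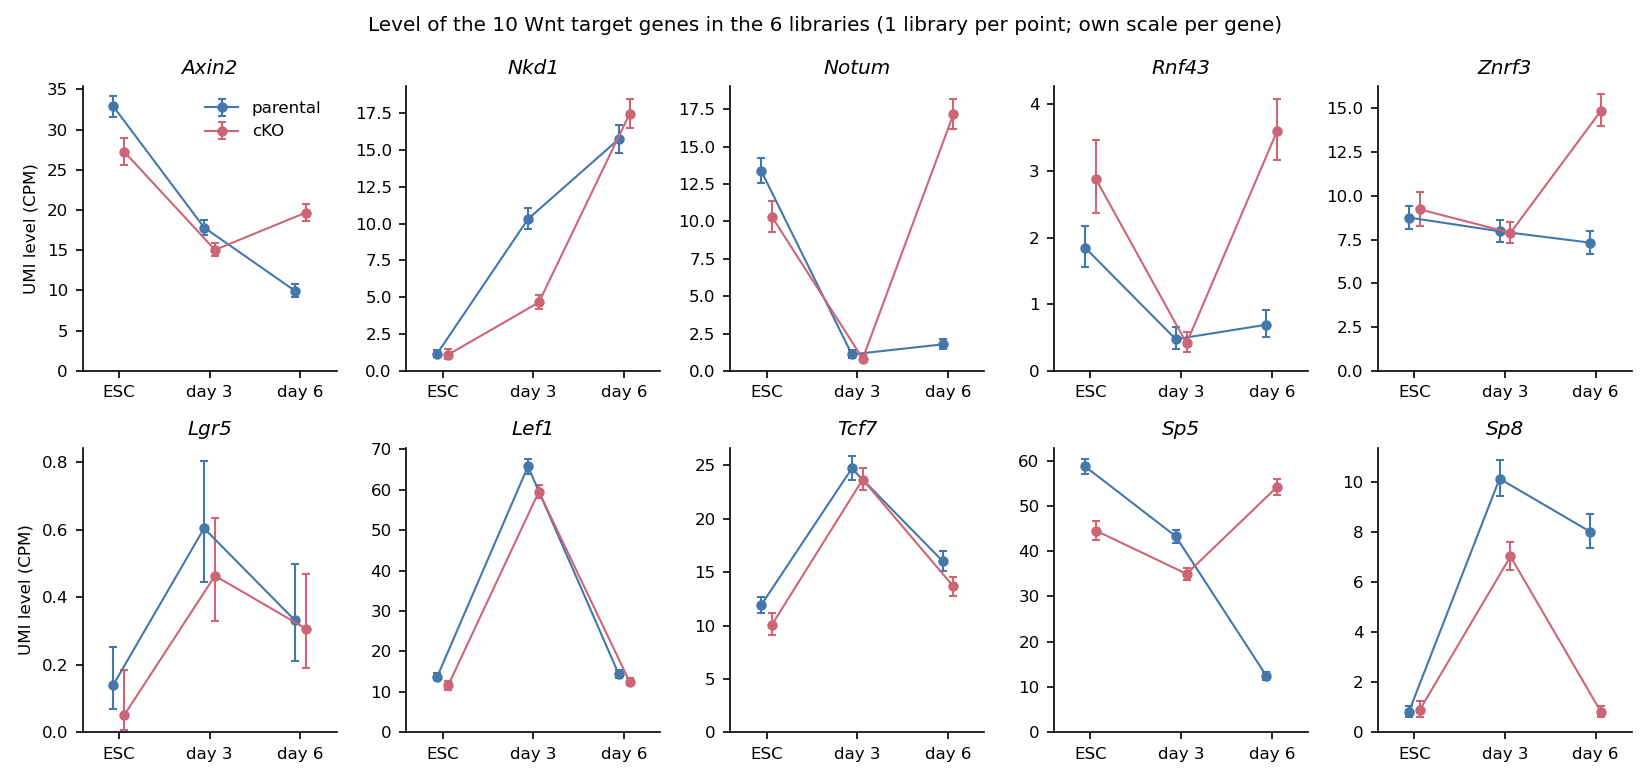
Level of each of the 10 genes (vertical axis, CPM, own scale per gene) in ESC and at days 3 and 6 for the parental and cKO lines. Points are single libraries and bars are 95% Poisson intervals. Sp5 and Notum separate between the lines at day 6, at 12.5 against 54.2 CPM and at 1.78 against 17.2 CPM, while Sp8 separates the other way.

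A gene was called different between 2 libraries when the higher one had at least 5 CPM and the ratio was at least 2-fold. The members were chosen with earlier results of these data known, so the shares of all genes are given for scale and test no excess. From ESC to day 3, the step into Bmp4 and then Rspo3, 4 of 8 tested members were higher in parental cells and 1 was lower, where 7.56% of 9555 tested genes were higher and 10.7% lower. The titles of the ESC libraries carry another prefix than those of days 3 and 6, of a meaning not given, so stage and whatever it marks cannot be told apart. The log2 ratios were 3.62 for Sp8, 3.12 for Nkd1, 2.25 for Lef1 and 1.05 for Tcf7, and -3.60 for Notum. In cKO cells 3 of 7 were higher and 1 lower, against 8.73% and 13.1% of all genes: Sp8 (2.97), Lef1 (2.36) and Tcf7 (1.23), with Notum at -3.65. Nkd1 had a ratio of 2.07 there but stayed under 5 CPM. Axin2, which is often read as the pathway's gauge, was lower at day 3 in both lines (-0.88 and -0.86) without reaching 2-fold. Lef1, Tcf7 and Sp8 were thus called higher and Notum lower in both lines. Tcf7 in parental cells lay at the threshold and was called in 5 of 7 alternative analyses (lowest ratio 0.76). Sp5 was at -0.44 and -0.35, and Rnf43 and Lgr5 were under 5 CPM.

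From day 3 to day 6 the lines differed in more members. In parental cells 0 of 7 tested members were called higher and 2 lower, against 18.3% of all genes higher and 5.41% lower: Lef1 (-2.19) and Sp5 (-1.80). In cKO cells 2 of 8 were higher and 2 lower, against 23.0% and 7.72%: Notum (4.39) and Nkd1 (1.91), and Sp8 (-3.12) and Lef1 (-2.24). Sp5 had a ratio of 0.63 (0.56 to 0.70) and Axin2 one of 0.39 (0.28 to 0.50) in cKO, and Axin2 was at -0.84 in parental cells. Lef1 was the one member called in the same direction in both lines. This step depended on scaling: with edgeR's TMM factors the median gene moved from 0.22 to -0.03 in parental and from 0.26 to -0.03 in cKO cells. Of the genes called, 62.1% and 56.4% were then higher, against 77.2% and 74.9% by library totals. The directions of Sp5 and Axin2 held in both lines under TMM, median-of-ratios factors and equal weight per cell. Which members were called did change with the processing. Axin2 in parental cells was called lower in 3 of 6 alternative analyses (lowest ratio -1.24). Tcf7 in cKO, at -0.79 in the main run, was called lower in 2 of 6 (lowest -1.06).

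Between genotypes, no member was called in ESC, where 1.4% of 9224 tested genes were higher in cKO and 2.66% lower. The 6 tested members had log2 ratios of cKO over parental between -0.40 (Sp5) and 0.07 (Znrf3). Without the fibroblast-like ESC described below 0 members were called, while the higher share of all calls went from 34.5% to 70.6%. At day 3, where 0.258% of 8917 tested genes were higher and 0.594% lower, Nkd1 was the 1 of 7 tested members called, at -1.15 (-1.33 to -0.97). The other 6 lay between -0.53 (Sp8) and -0.02 (Znrf3). With TMM factors the median gene moved from -0.06 to 0.04 at this stage and the higher share of calls from 30.3% to 47.8%, and the ratios of Tcf7 and Znrf3, both near 0, changed sign.

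At day 6 the call covered 4 of 8 tested members. Notum (3.27, interval 3.004 to 3.55), Sp5 (2.12, 2.01 to 2.23) and Znrf3 (1.02, 0.87 to 1.18) were higher in cKO and Sp8 (-3.31, -3.74 to -2.91) was lower, where 5.63% of 10065 tested genes were higher and 6.76% lower. Axin2 fell just short at 0.98 (0.85 to 1.11). Axin2 and Znrf3 lie at the threshold, and each was called in 3 of 6 alternative analyses. Among these 6, the removal of doublets took out 0 parental and 1 cKO cell and could hardly change a call. Rnf43 had a ratio of 2.38 (1.93 to 2.86) but only 48 parental and 246 cKO UMIs. The ratios of Lef1 (-0.20), Tcf7 (-0.23) and Nkd1 (0.15) were small. The 2 TCF and LEF genes and the inhibitors at the cell surface thus gave different pictures of the same pair of libraries.

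A summed level mixes how many cells of a kind a library holds with how much each cell expresses, so cells were clustered within each stage without the members. Clusters were named from marker lists, with names rebuilt here and not the authors'. At day 6 cluster 1 was somite-like (8 of 8 markers, with Meox1 and Tcf15 among its leading genes; 221 parental and 231 cKO cells). Clusters 2 and 3 were surface epithelium-like, with 155 and 49 parental and 296 and 374 cKO cells. Cluster 5 was neural progenitor-like (319 and 5) and cluster 10 neuron-like (82 and 6), while cluster 8, led by Hoxb9, held 8 markers each of both neural lists and stayed unnamed (164 and 2). Cluster 12, led by Pomc, T and Shh, was axial mesoderm-like (13 and 56). The 2 epithelium-like clusters made up 13.2% of parental and 40.6% of cKO cells, and clusters 5, 8 and 10 made up 36.5% and 0.788%.

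The members differed in which cells carried them. The levels that follow are over both lines together, so a cluster's level also reflects which line fills it. Sp8 was a gene of the neural clusters, at 19.1, 14.6 and 16.2 CPM in clusters 5, 8 and 10 and at 0.195 to 1.52 CPM in clusters 1, 2 and 3. In the parental library those 3 neural clusters gave 85.8% of all Sp8 UMIs, beside 41.2% of the UMIs of all genes, and the cKO library held 13 cells of them in all. The low Sp8 of day 6 cKO therefore went with few cells of the clusters that carry it. Sp5 was the reverse, with 0.460 CPM in cluster 5 and 0.5 to 5.9 CPM in the other 2 neural clusters, and with its peak of 162 CPM in the axial mesoderm-like cluster 12. Nkd1 was shared among mesoderm and neural cells, with 68.1 CPM in cluster 12, 36.6 in cluster 1, 22.04 in cluster 10 and 17.5 in cluster 5, against 3.4 and 3.7 CPM in the epithelium-like clusters. Among parental cells alone cluster 1 (22.2 CPM), cluster 10 (21.01) and cluster 5 (17.4) were close. Among clusters of at least 50 cells Notum, Rnf43 and Znrf3 were highest in the epithelium-like ones, where Notum stood at 17.2 and 19.8 CPM and Znrf3 at 15.3 and 17.9 CPM. Those 2 clusters gave 88.8% of the Notum UMIs, 90.7% of the Rnf43 UMIs and 83.3% of the Znrf3 UMIs of the cKO library, beside 67.3% of all its UMIs. In the parental library they gave 51.2%, 72.9% and 28.6%, beside 20.7% of all UMIs. Lef1 and Tcf7 were highest in cluster 1 among the named clusters, at 35.9 and 24.7 CPM.

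**Figure D2:**
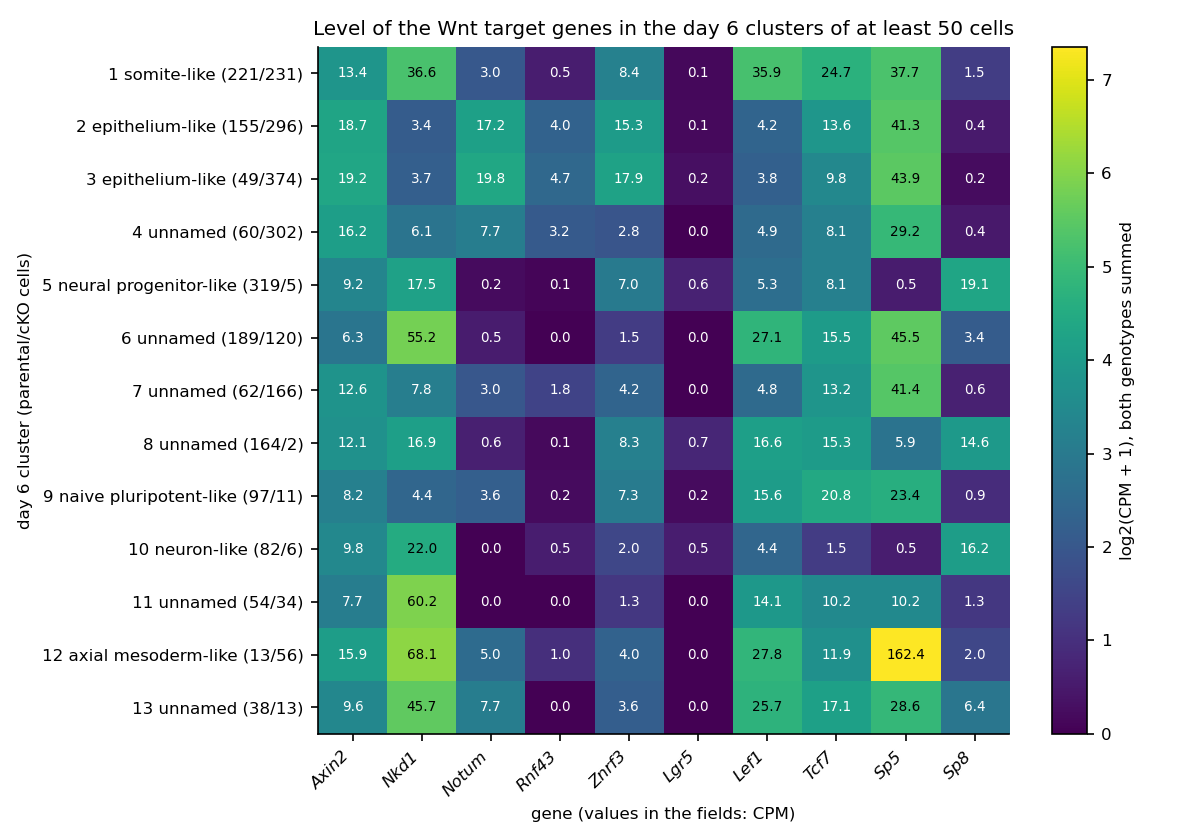
Level of the 10 genes (columns) in the day 6 clusters of at least 50 cells (rows, with the numbers of parental and cKO cells), both genotypes summed. Colour is log2(CPM + 1) and the printed value is CPM. Sp8 passes 10 CPM in clusters 5, 8 and 10 alone, Notum and Znrf3 peak in clusters 2 and 3, and Sp5 peaks at 162 CPM in cluster 12.

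Within clusters that both lines filled, Sp5 was higher in cKO in each of the 3 compared. In the somite-like cluster 1 it was at 14.7 CPM in parental and 61.2 CPM in cKO cells, a log2 ratio of 2.05 (1.82 to 2.29). It had a UMI in 27.1% of the parental cells there and in 60.6% of the cKO ones, at median depths of 47730 and 42808 UMIs. In the neural progenitor-like cluster, where it is nearly absent, 1.25% of parental cells had a UMI at a median of 36392. Nkd1 followed at 22.2 and 51.3 CPM (1.205, 1.002 to 1.41). These were the 2 of 6 tested members called in cluster 1, where 2.76% of 9674 tested genes were higher and 1.91% lower. Axin2 (0.50), Znrf3 (0.47), Lef1 (0.30) and Tcf7 (-0.01) were not, and Notum went from 1.16 to 4.98 CPM, under the 5 CPM minimum.

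Other genes moved with Sp5 in cluster 1. Its cKO cells had more of the epithelial genes Krt8 (52.0 to 203 CPM), Krt18 (44.7 to 245), Perp (4.09 to 63.9) and Wnt6 (13.3 to 103), more T and Rspo3 (6.72 to 23.7 and 25.4 to 66.6), and less Acta2 (713 to 160). In the 199 parental and 164 cKO cells with few keratin UMIs, an alternative chosen after seeing the data, Krt8 was by that choice at a like level, 18.04 and 19.99 CPM, and Krt18 at 17.4 and 29.3 CPM. Wnt6 (6.07 and 52.8 CPM) and Perp (2.43 and 26.4 CPM) were still higher in cKO. In these cells the ratio was 2.03 (1.78 to 2.28) for Sp5, 1.32 for Nkd1 and 0.13 for Znrf3. The part of the epithelial genes in the ratio of Sp5 was not tested. The result depended on the clustering. At a resolution of 1.2 the somite-like class held 54 parental and 196 cKO cells, with Sp5 at 36.5 and 66.8 CPM (0.87, 0.56 to 1.21) and Nkd1 at 0.87, both short of 2-fold. At 0.4 no cluster was named somite-like.

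In the epithelium-like cluster 2, Sp5 was at 14.3 CPM in parental and 55.0 in cKO cells (1.94, 1.71 to 2.18). Notum was at 3.95 and 23.9 CPM (2.60, 2.16 to 3.07) and Axin2 at 10.0 and 23.1 CPM (1.203, 0.91 to 1.504). Lef1 was low in both, at 1.97 and 5.29 CPM (1.42). These were 4 of 6 tested members called higher, with none lower, where 1.73% of 9543 tested genes were higher and 2.54% lower. Znrf3 (0.99) fell short, and Tcf7 had the opposite sign (-0.75, from 18.6 to 11.1 CPM). In cluster 3, with only 49 parental cells, Sp5 (13.8 and 47.4 CPM, 1.78) and Notum (6.35 and 21.4 CPM, 1.75) were the 2 of 5 called, where 1.8% of 9558 tested genes were higher and 1.79% lower. Axin2 was at 0.95 there. Most parental epithelium-like cells were in cluster 2 and most cKO ones in cluster 3, and over both together the ratios were 1.85 for Sp5, 2.37 for Notum and 1.10 for Axin2. At a resolution of 1.2 they were 1.52, 2.03 and 0.93.

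**Figure D3:**
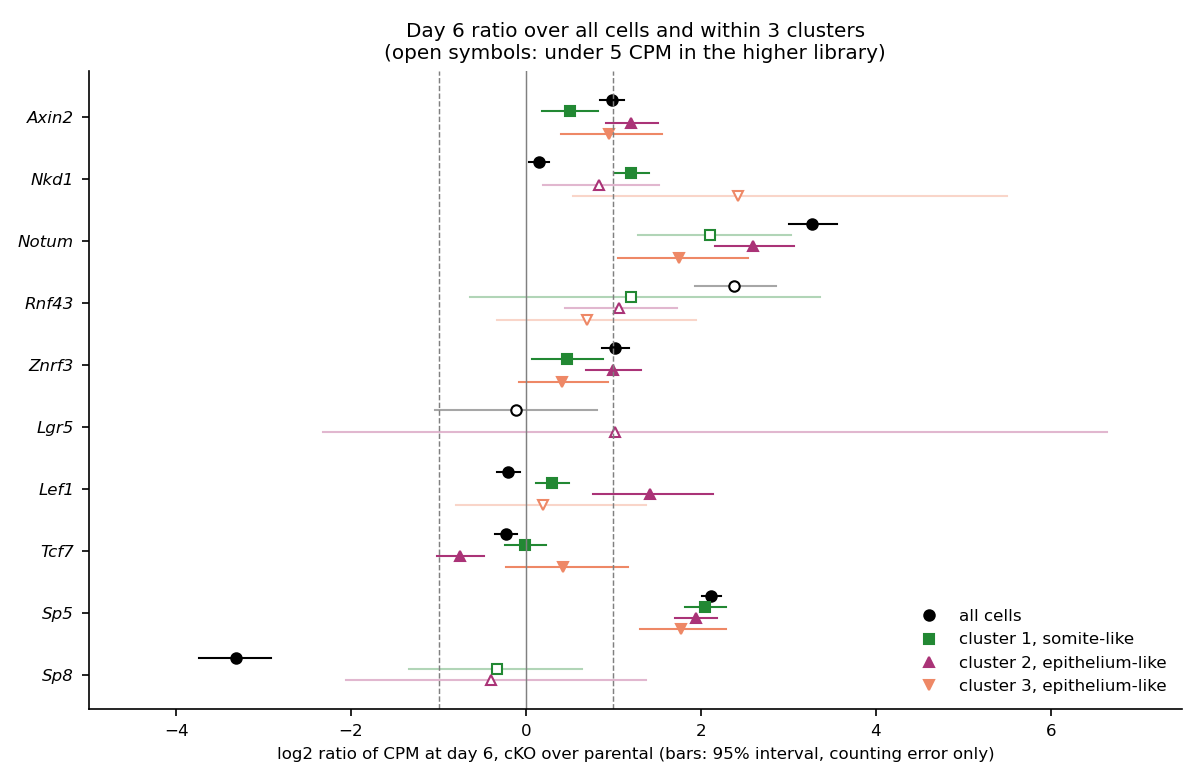
log2 ratio of cKO over parental at day 6 (horizontal axis) for each gene over all cells and within clusters 1, 2 and 3, with 95% counting intervals. Open symbols mark genes under 5 CPM and dashed lines mark 2-fold. Sp5 lies between 1.78 and 2.12 in all 4, whereas Sp8 is at -3.31 over all cells and at -0.34 and -0.40, under 5 CPM, within clusters 1 and 2.

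The same epithelial class was present before differentiation. ESC cluster 4, surface epithelium-like, held 79 parental and 101 cKO cells, and there Sp5 was lower in cKO, at 25.2 against 42.5 CPM (-0.75, -1.05 to -0.45). That gap went with 21 parental cells on the side of high chromosome 11, by a score described below, at 83.2 CPM. Cells near the cKO median of that score had 24.3 CPM in parental and 25.5 CPM in cKO. Notum (6.57 and 7.39 CPM) and Axin2 (36.5 and 32.8 CPM) differed by less than their counting intervals. Among the ESC clusters Sp5 ranged from 5.99 CPM in the fibroblast-like cluster 8, with 123 parental and 3 cKO cells, to 83.1 CPM in cluster 10. Lef1 ranged from 1.21 CPM to 55.5 CPM in cluster 12, an unnamed group of 51 cells of low UMI content that also had 94.9 CPM of Axin2 and counted T and Nkx1-2 among its leading genes. At day 3 Lef1 was above 25 CPM in every cluster of at least 35 cells. The 2 clusters called primitive streak or neuromesodermal-like, 3 and 5, were almost wholly parental (285 and 1, 191 and 7 cells). Cluster 3, led by Hoxb1 and Hoxb2, had the higher Nkd1 (15.2 against 7.95 CPM), and cluster 5 the higher Axin2 (25.9 against 16.3 CPM) and Tcf7 (38.8 against 18.2 CPM). By the same score 279 parental cells of cluster 3 were on the side of high chromosomes 1, 6 and 8, where Nkd1 lies, and 175 of cluster 5 on that of high chromosome 11, where Axin2 and Tcf7 lie. Its part in these differences was not tested.

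The division of UMIs among chromosomes moved with several of these values. DNA was not measured, so the score describes RNA alone. A score for each cell, the mean log2 share of UMIs from chromosomes 1, 6 and 8 less that from chromosome 11, was set to 0 at the median cKO cell of a stage, with the members left out. It lay within 0.25 of 0 in 492 of 530, 966 of 1026 and 1445 of 1650 cKO cells from ESC to day 6, but in 409 of 1396, 128 of 948 and 272 of 1546 parental cells. The rest of the parental cells lay on both sides, with 601, 318 and 802 on the side of high chromosome 11. The groups are named by side of the score. A low share from chromosomes 1, 6 and 8 can also put a cell on the side of high chromosome 11, and the reverse. Axin2, Tcf7, Notum, Rnf43 and Znrf3 are on chromosome 11 and Nkd1 on chromosome 8. The median gene of chromosome 11 had a log2 ratio of cKO over parental of -0.27, -0.21 and -0.32 at the 3 stages, and that of chromosome 8 -0.15, -0.32 and -0.25.

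Levels differed between these parental groups, for genes on other chromosomes too. In parental ESC, Axin2 was at 43.0 CPM in cells with high chromosome 11, 27.3 in those near 0 and 18.5 in those with high chromosomes 1, 6 and 8. Notum was at 21.0, 6.42 and 5.96 CPM in the same order, Tcf7 at 16.7, 8.53 and 6.07, and Lef1, on chromosome 3, at 18.2, 15.05 and 3.06 CPM. Against the parental ESC near 0, cKO ESC near 0 had Notum at 10.1 CPM, Sp5 at 44.9 against 43.4 and Tcf7 at 9.88, so the 3 ratios that were below 0 over all cells were above 0 there. The parental group near 0 included 89 cells of the fibroblast-like cluster, which had Sp5 at 1.22 CPM. At day 3 parental Nkd1 was at 13.3 CPM in cells with high chromosomes 1, 6 and 8, 7.87 near 0 and 7.06 with high chromosome 11. Between cells near 0 the day 3 ratio of Nkd1 was -0.74, short of 2-fold.

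At day 6 the 3 parental groups had Sp5 at 15.2, 14.7 and 5.14 CPM, all below the 54.4 CPM of cKO cells near 0. Parental Notum was at 1.96, 2.64 and 0.663 CPM against 18.04, and parental Sp8 at 4.45, 7.91 and 15.04 against 0.571. The 145 cKO cells with high chromosome 11 had Sp5 at 52.9 CPM but Notum at 3.68 CPM (2.01 to 6.18). Their Notum and Sp8 intervals (Sp8 3.01 to 7.81 CPM) overlapped the parental ones on that side (1.52 to 2.48 and 3.78 to 5.21). The 60 cKO cells with high chromosomes 1, 6 and 8 had Sp5 at 52.2 CPM, Notum at 14.4 and Sp8 at 0. Within the somite-like cluster the 33 parental cells near 0 had Sp5 at 19.98 CPM and Nkd1 at 34.4, and the 205 such cKO cells had 58.3 and 54.5 CPM. Within cluster 2 the 42 parental cells near 0 had Notum at 8.29 CPM and the 105 with high chromosome 11 had 1.96 CPM, against 24.5 CPM in 278 cKO cells near 0.

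**Figure D4:**
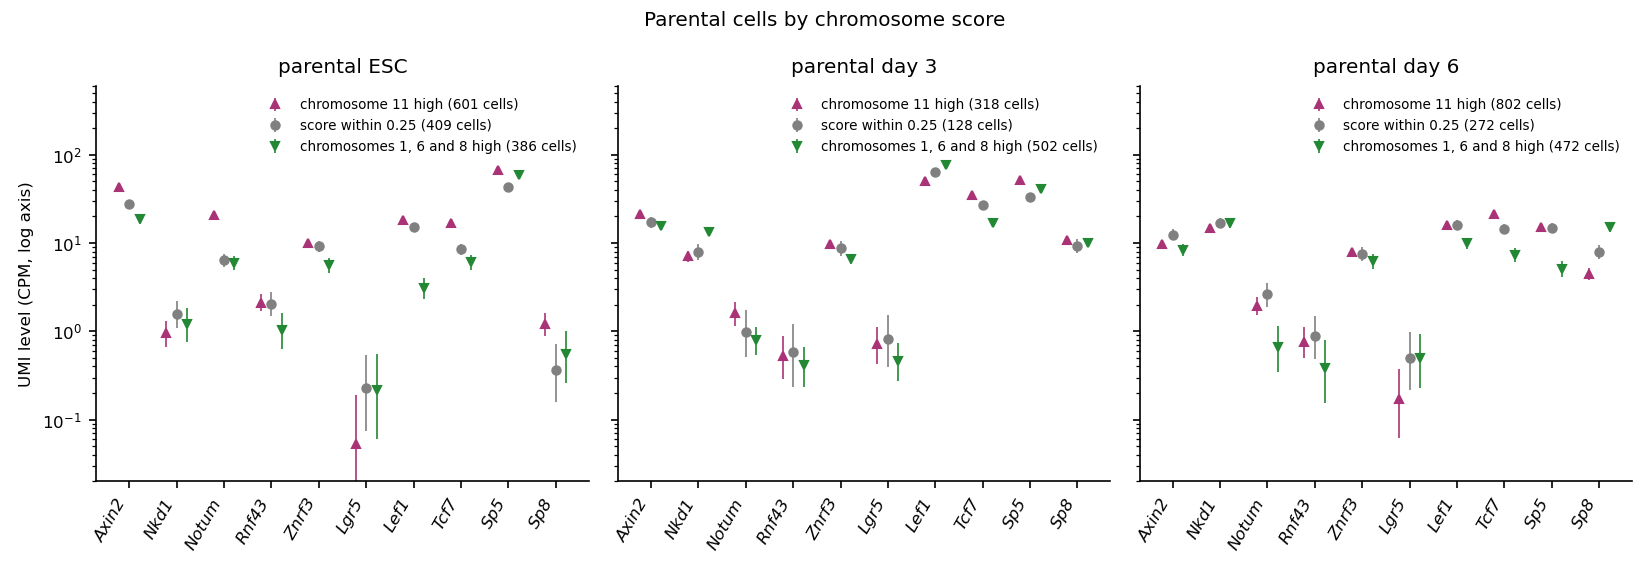
Level of the 10 genes (CPM, log axis) in parental cells of each stage, divided by chromosome score into high chromosome 11, within 0.25 of 0, and high chromosomes 1, 6 and 8, with 95% counting intervals. The lowest interval of Lgr5 in ESC runs off the axis. In ESC Axin2, Notum, Tcf7 and Lef1 descend from the first group to the last, and at day 6 Sp5 is at or below 15.2 CPM in all 3.

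Detection per cell was compared after each cell was thinned to 10000 UMIs, which left out 140 and 50 shallower cells in ESC, 101 and 34 at day 3 and 371 and 558 at day 6 (parental and cKO). Cells with UMIs of at least 2 of the 10 genes made up 26.0% of parental and 23.3% of cKO ESC, and 40.5% and 33.2% at day 3. At day 6 they made up 15.1% of parental cells (exact interval 13.1 to 17.3%) and 27.9% of cKO cells (25.3 to 30.7%), so the order of the lines differed from that of day 3. Thinned shares for Sp5 at day 6 were 5.53% and 25.5%, against 12.3% and 34.7% at full depth (medians of 36219 and 30925 UMIs). For Notum they were 1.53% and 10.3%, and for Sp8 8.68% and 1.01%.

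Other parts of the pathway at day 6 were read from lists by the same rule of 2-fold and 5 CPM. These lists too were chosen with earlier results of these data known, so their counts describe the lists and test no excess. Of 6 tested Wnt ligands (19 listed) 5 were higher in cKO and none lower, beside 5.63% and 6.76% of all tested genes, with Wnt6 (62.3 and 511 CPM, 3.04), Wnt10a (2.64) and Wnt4 (1.88) the furthest apart. Wnt6, a ligand of surface ectoderm, was at 234 and 761 CPM within the epithelium-like cluster 2, so cell numbers and level both differed. Rspo3 itself was called higher, at 7.48 and 28.5 CPM (1.93), as the only R-spondin tested. Of 12 tested receptors and co-receptors (18 listed) the co-receptor Ptk7 (1.08) was higher and Fzd3 (-2.73) and Fzd7 (-1.19) were lower. None of the 13 tested genes of the destruction complex and its transducers (14 listed) was called, with ratios from -0.54 to 0.39. Among 9 tested nuclear partners (10 listed) the co-activator Bcl9l (1.31) was higher and Pygo1 (-2.15), of the same complex, lower. Of 8 other tested Wnt-responsive genes (16 listed) Tnfrsf19 (1.95), the streak and tailbud factor T (1.88) and Bambi (1.54) were higher and none lower. Of 5 tested Sp family genes outside the members (7 listed) Sp6 (2.05) was higher. The median ratio was 1.86 over the ligands and 0.56 over the 8 tested members, beside -0.05 over all tested genes. In ESC 1.4% of all tested genes were higher in cKO and 2.66% lower. Of 8 tested Wnt-responsive genes there, Dkk1 (1.32) was higher and Cd44 (-2.93) lower. Tcf7l2 (1.06) was higher among 8 nuclear partners and Wnt5a (-3.59) lower among 3 ligands. The part of the fibroblast-like ESC, 123 parental and 3 cKO cells, was not tested. At day 3 Cdx2 (-1.59) and Cdx1 (-1.01), of 9 tested Wnt-responsive genes, were lower in cKO. Of all tested genes 0.594% were lower and 0.258% higher at that stage. Cdx1 lay at the 2-fold threshold, and its call under other scalings was not tested. Cdx2 was among the leading genes of day 3 cluster 3, with 285 parental cells and 1 cKO cell. The part of cell numbers in these ratios was not tested. No other gene of these 7 lists was called in ESC or at day 3. From day 3 to day 6, 6 of 9 tested genes of the Wnt-responsive list were lower in parental cells, T (-3.17), Cdx1 (-2.32) and Cdx2 (-2.06) most, and 1 was higher, beside 5.41% and 18.3% of all tested genes. In cKO cells 4 of 10 were lower and 2 higher, beside 7.72% and 23.0%. There Cdx1 (-1.01) and Cdx2 (-1.22) were lower, T was at -0.98, and Cdx4 went from 9.22 to 0.0732 CPM. Dkk1, a secreted inhibitor of Lrp5 and Lrp6, was higher in both lines (4.17 and 4.42). Cdx1, Cdx2 and Cdx4 encode homeobox factors of the trunk and tail.

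The genes most like each member were those with the highest Pearson correlation of log2(CPM + 1) over the 34 clusters of at least 50 cells, among 9046 genes. These points share libraries, depth and chromosome content, and the coefficients are descriptions. Sp8 was most like Sfrp2 (0.91), a secreted Wnt modulator, then Jakmip2 (0.89) and Car14 (0.86). Nkd1 was most like Hoxb2 (0.91), a homeobox gene, then Enho (0.89) and Pkdcc (0.89). Notum was most like Hexim1 (0.90), then Tanc1 (0.85). Sp5 was less closely matched, by Npm3 (0.79), Ubfd1 (0.76) and Tpd52l1 (0.74). The nearest for the others were Plekhm1 for Axin2 (0.83), Dus1l for Tcf7 (0.83), Ramp2 for Lef1 (0.77), Pip4k2c for Rnf43 (0.88), Nomo1 for Znrf3 (0.88) and Sncb for Lgr5 (0.74). Hexim1, Plekhm1 and Dus1l are on chromosome 11, as are Notum, Axin2 and Tcf7. Within the set, Sp8 and Lgr5 (0.77), Lef1 and Tcf7 (0.75) and Notum and Rnf43 (0.71) lay close. Sp5 and Notum had 0.47, and Sp8 and Notum had -0.65. Lgr5 reached at most 0.732 CPM in these clusters, so its coefficients, that with Sncb among them, rest on few UMIs.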

How the data were processed

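UMI counts per gene and barcode were made by the authors with Cell Ranger 3.1.0 from 10x 5′ libraries on mouse build mm10, per the file headers and the submitters' processing notes. Cell calling settings are not given in the sources used here. The members and the lists were chosen with earlier results of these data known. UMIs were summed over kept barcodes and scaled per 1e+06. Poisson, binomial and Clopper-Pearson 95% intervals cover counting error only, and a count of 0 was given a floor of 3 UMIs. Genes named beyond the members are the up to 3 furthest apart per list and up to 3 most correlated per member (1 is not reported here). Leiden clusters (igraph 0.11.9) used 2000 variable genes ranked over both libraries of a stage, 30 components, 15 neighbours and resolution 0.8. Names needed at least 3 markers, 1.5 times the next list's number, with clusters of low UMI content unnamed, a rule set after seeing the data. Scrublet (scanpy 1.11.5) marked 38 of 7096 cells, 0 and 1 in the day 6 libraries, where it did not work, so all were kept. Alternatives were edgeR 4.0.16 TMM factors, median-of-ratios factors, equal weight per cell, stricter filters, without doublets, one chromosome group, and without fibroblast-like ESC. The thresholds were tried on simulated counts with planted fold changes and counting error only. Variation between libraries was not simulated, so that run cannot show how often a call would repeat.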

Additional observations from a re-analysis of the deposited data

Results flagged for a closer look

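From day 3 to day 6, Sp5 had a log2 ratio of -1.80 in parental and 0.63 in cKO cells, a difference of 2.43 in opposite directions. Axin2 had -0.84 and 0.39, a difference of 1.23, also in opposite directions. With 1 library for each genotype and stage, neither difference was tested.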

How the results depend on the processing

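No called member changed direction under any alternative run. Sp5, Notum and Sp8 at day 6 were called in all 6 alternatives (log2 ratios of 1.88 to 2.34, 2.78 to 3.35 and -3.79 to -2.89). The alternative without doublets removed 0 parental and 1 cKO cell of day 6, so it could hardly differ from the main run. Raising the minimum to 20 CPM left 1 higher and 0 lower members between lines at day 6, 0 lower at day 3, 2 higher and 0 lower from ESC to day 3 in parental and 0 lower in cKO cells, and 0 higher and 1 lower from day 3 to day 6 in cKO, since fewer members were tested. A minimum of 1 CPM gave 2 lower members from ESC to day 3 in each line, with Rnf43 added to Notum. With the stricter cell filter (2000 genes, 5% mitochondrial), 1 member (Notum) was lower in cKO ESC, and 0 were lower from ESC to day 3 in cKO. With cells of chromosome score within 0.25, 0 members were lower in cKO at day 3, and 1 (Nkd1) was higher from day 3 to day 6 in parental cells. For these filters the cause was not tested. Depth limits Lgr5, with 2 to 47 UMIs a library. No paired analysis was possible because each genotype and stage had 1 library.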
